A study of Mus musculus with 22 samples.

Results

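The claudins Cldn2, Cldn3, Cldn4, Cldn7, Cldn8, Cldn15 and Cldn23, together with occludin (Ocln), the scaffold ZO-1 (Tjp1) and the junctional adhesion molecule JAM-A (F11r), were followed across 22 arrays of terminal ileum RNA. These 10 genes were chosen by name, and 10 of the 18193 genes measured are described here. Each gene was read through its probe set of highest mean over the 22 arrays: 1417231_at for Cldn2, 1460569_x_at for Cldn3, 1418283_at for Cldn4, 1448393_at for Cldn7, 1449091_at for Cldn8, 1418920_at for Cldn15, 1424409_at for Cldn23, 1448873_at for Ocln, 1417749_a_at for Tjp1 and 1424595_at for F11r. All animals were NOD mice, a strain prone to autoimmune diabetes. PAT mice had received antibiotics in pulses at therapeutic doses, and were read on 3 arrays from females and 5 from males. STAT mice had received antibiotics at a sub-therapeutic level, on 3 arrays from females and 3 from males. Control mice carried the same strain background, on 3 arrays from females and 5 from males. No source used here gives the drugs, the doses, the times of treatment or the ages. The labels do not say whether each array came from a separate animal, so the p-values measure only the spread between these samples, part of which may be technical.

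Tight junctions close the space between neighbouring epithelial cells near their apical side. Claudins are the transmembrane proteins that form their strands, and the mix of claudins sets which ions and how much water pass between cells. Some claudins form channels and others make the seal tighter, while occludin, junctional adhesion molecules and the ZO scaffolds organise the strands and tie them to actin. In the small intestine the channel-forming claudins serve sodium recycling for nutrient uptake, and the junction as a whole keeps luminal bacteria and their products out of the tissue.

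The values are log2 expression levels as deposited, so a log2 difference of 1 is a doubling. A gene was called when its adjusted p in limma was under 0.05, with Benjamini-Hochberg adjustment over all 18193 genes within a comparison. Errors beside differences are standard errors (SE), and errors beside levels are standard deviations (SD). The tissue label was checked with ileal epithelial markers: the ileal bile acid binding protein Fabp6 lay between 13.93 and 14.62 on every array, the epithelial surface protein Epcam between 13.92 and 14.33, and the ileal bile acid transporter Slc10a2 between 9.61 and 11.98. The colonic homeobox gene Hoxb13 lay between 4.20 and 4.78, and Car1, a carbonic anhydrase abundant in the large intestine, ranged from 5.19 to 14.50. STAT males 2 and 3 stood apart from the other arrays. The level at the 3-prime end of beta-actin minus that at its 5-prime end, a measure of RNA integrity, was 0.59 and 0.60 on these arrays, while the other 20 arrays lay between 0.28 and 0.42. They also had the highest scores on the first principal component (27.1 and 27.7), followed by PAT female 1 (21.9), which alone had a high level of the B cell marker Ms4a1 (9.16, against 4.31 to 5.56 on the other arrays).

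Cldn8, a claudin that restricts the passage of ions, was the only member called in PAT mice against control, and it was lower. Averaged over the sexes it fell by 0.33 ± 0.10 on the log2 scale (SE, 1.26-fold lower, adjusted p = 0.04 in limma), and in males by 0.49 ± 0.12 (1.40-fold lower, adjusted p = 0.0182). Limma called 1 of the 10 members in the averaged comparison, lower in PAT, where it called 4.61% of all genes higher and 6.38% lower. In males it called 1 of 10, again lower in PAT, against 2.34% of all genes higher and 6.68% lower. In females it called 0 of 10, against 2.27% higher and 1.08% lower. At an unadjusted p under 0.05 there were 3 members in each of the 3 comparisons, against 24.1% of all genes averaged over the sexes, 20.9% in females and 25% in males. The median difference of the 10 members was -0.17 averaged over the sexes, and 8 of them lay below 0. Over all genes the median was -0.0048, with 51.4% below 0. Cldn4 had the largest averaged fall of the 10, -0.39 ± 0.29 (SE), without a call (adjusted p = 0.47 in limma).

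**Figure D1:**
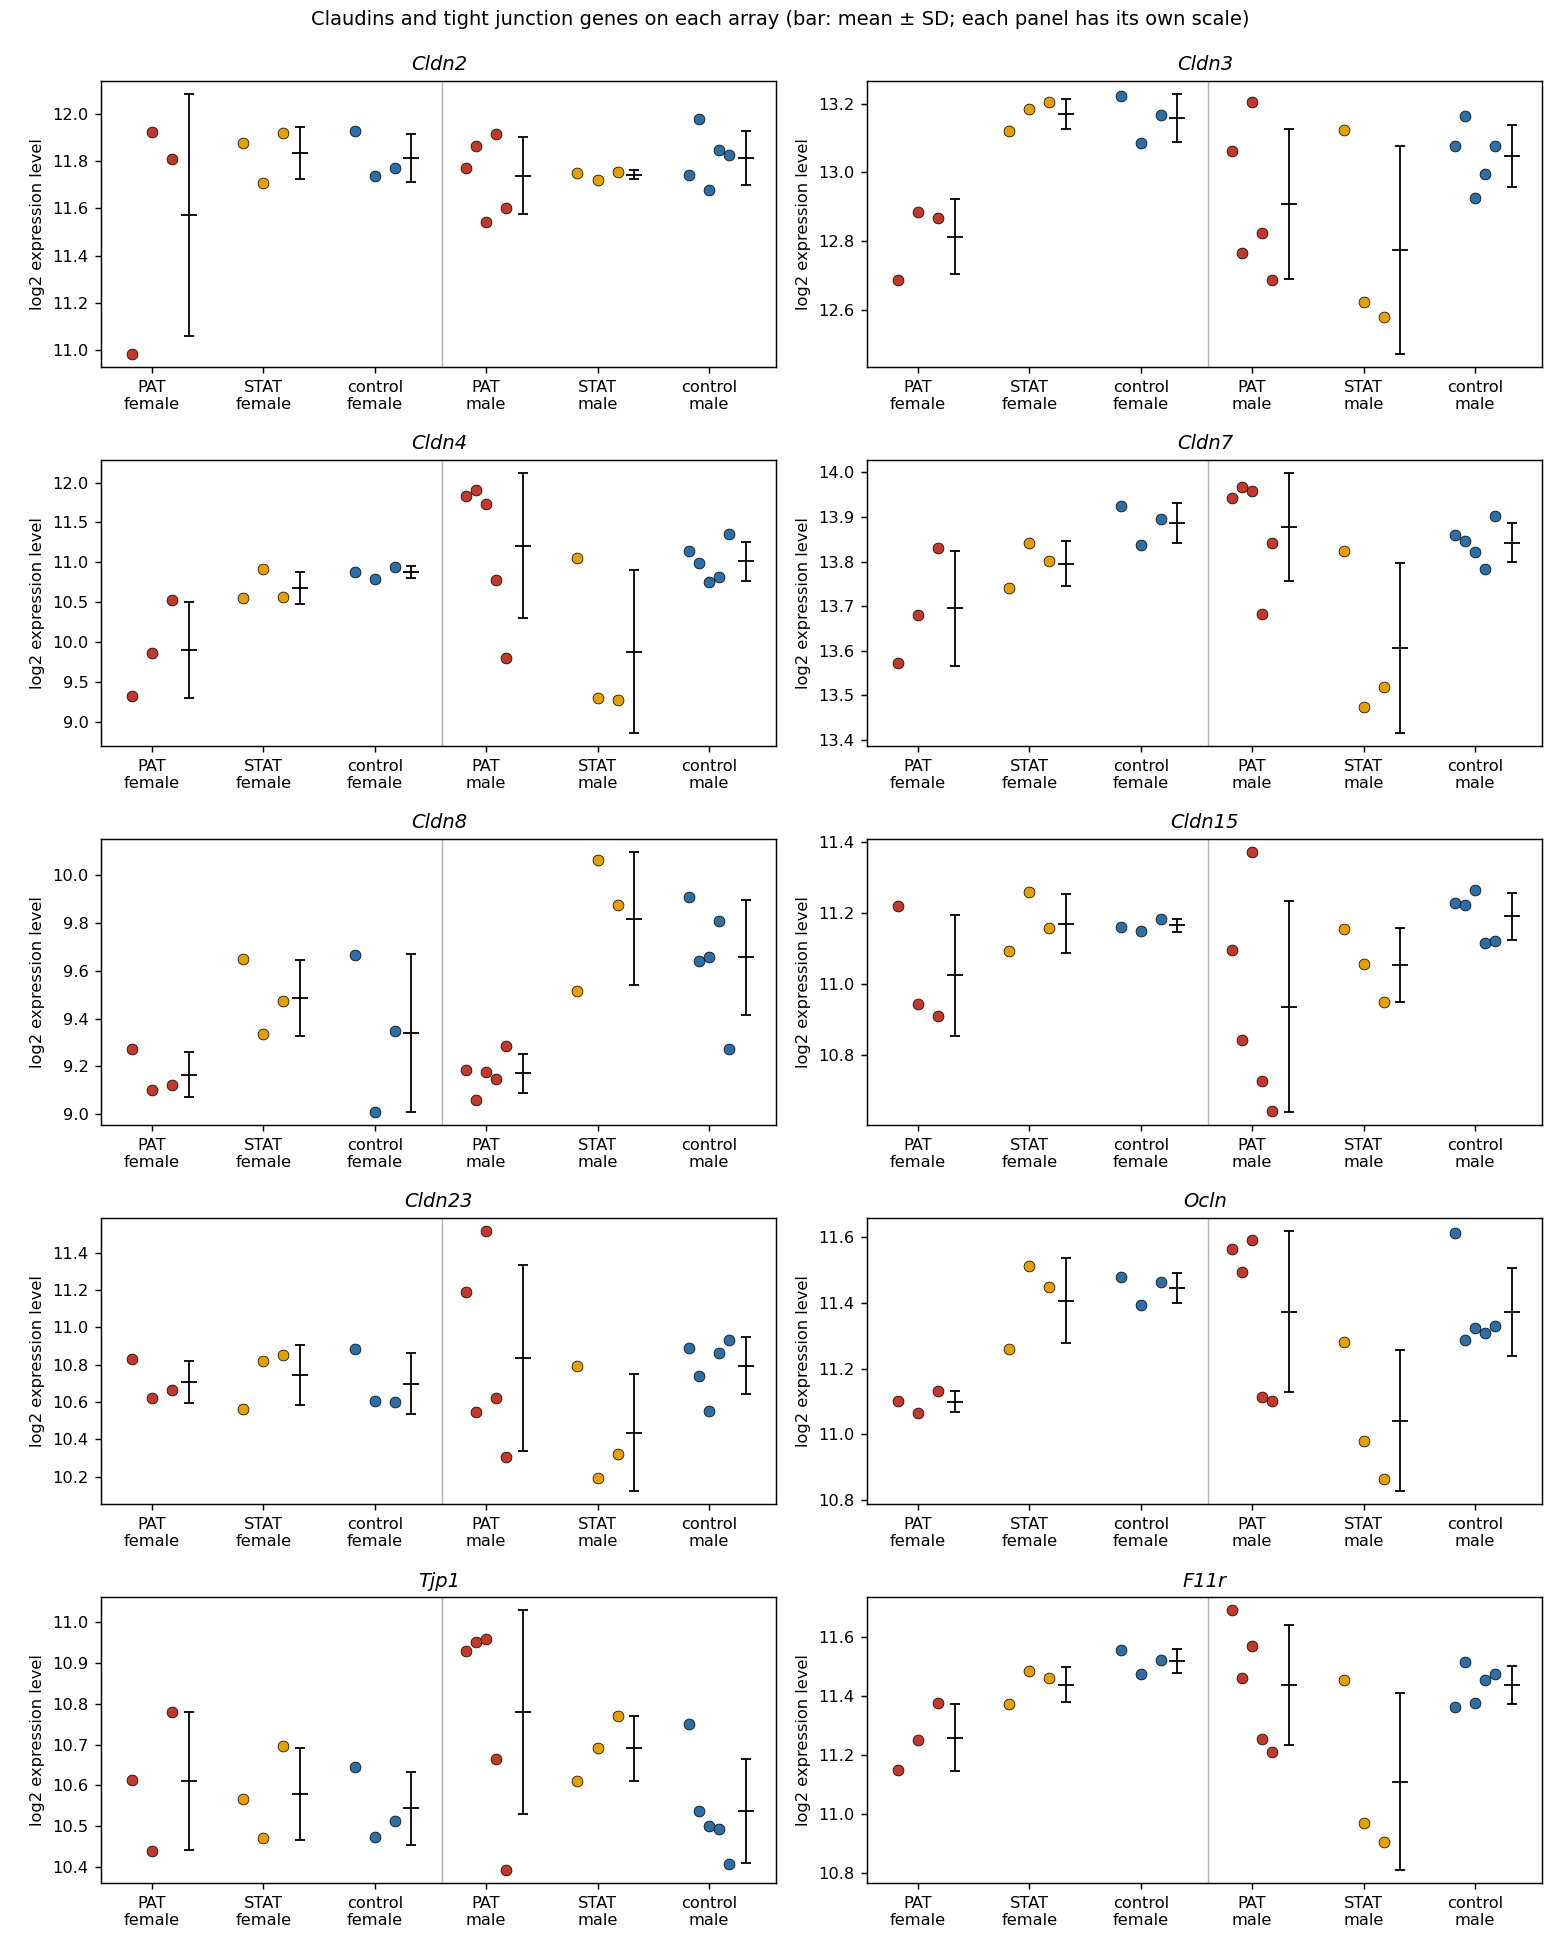
Log2 expression level (vertical axis, a separate scale in each panel) of the 10 genes on each of the 22 arrays, by group, with females left of the grey line and males right of it. Points are arrays and bars show the group mean ± SD; the 5 PAT males sit low for Cldn8, between 9.06 and 9.29, and STAT males 2 and 3 sit low for Cldn3, Cldn4, Cldn7, Cldn23, Ocln and F11r.

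The level of Cldn8 was 9.19, 9.06, 9.18, 9.15 and 9.29 on the 5 PAT male arrays, against 9.91, 9.64, 9.66, 9.81 and 9.27 on the 5 control male arrays. It was 9.27, 9.10 and 9.12 in PAT females, against 9.67, 9.01 and 9.35 in control females. The PAT arrays lay close together in both sexes, and the control arrays were spread more widely. In males the groups overlapped through control male 5 alone, which lay just under PAT male 5, and in females control female 2 lay below all PAT females. The female difference was -0.17 ± 0.16 (adjusted p = 0.58). An exact permutation test of the averaged difference, with arrays exchanged within each sex, gave a two-sided p = 0.00992 over 5040 regroupings. The averaged call was fragile. It held in 5 of the 16 fits that left out 1 array, with differences from -0.41 to -0.25 and adjusted p from 0.0144 to 0.143, and it was lost with array weights (-0.31, adjusted p = 0.0627). The call in males was lost without control male 1 (adjusted p = 0.0605) or PAT male 2 (adjusted p = 0.0553). With the Gapdh end-to-end difference as a covariate the averaged difference was -0.49 ± 0.11 (adjusted p = 0.00894).

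Because the tissue was sampled whole, fewer cells of a type and less RNA per cell cannot be told apart. Cldn8 is known to be abundant in the large intestine, so the markers of that organ are given beside it. Of 6 large-intestine markers measured, limma called 0 higher and 1 lower in PAT mice averaged over the sexes, against 4.61% and 6.38% of all genes. At an unadjusted p under 0.05 there were 2 of the 6, against 24.1% of all genes. Of the 6, 4 lay below 0, and the median difference was -0.31. In males limma called 0, with 2 at an unadjusted p under 0.05 (25% of all genes) and a median of -0.30. The mean log2 level of the 6 ran from 7.16 to 8.18 in PAT males, against 7.15 to 9.49 in control males, and from 6.85 to 8.66 in PAT females, against 7.86 to 8.70 in control females. Car1, the defining marker of that list, was at 5.88, 10.08, 8.90, 12.14 and 8.54 in PAT males, against 9.27, 6.19, 11.94, 13.95 and 14.23 in control males. In females Car1 was at 5.19, 12.88 and 6.27 with PAT, against 12.84, 10.69 and 10.05 in controls. Among the other marker lists in the averaged comparison, 2 of 5 endothelial, 1 of 4 enterocyte and 1 of 5 ileal epithelial markers were higher. Among crypt base markers 1 of 5 was lower, as were 1 of 4 T cell and 1 of 5 follicle-associated epithelial markers. Of the goblet, Paneth, smooth muscle, B cell and adipocyte lists limma called 0 genes in that comparison, and 1, 0, 1, 1 and 0 had an unadjusted p under 0.05. In males alone limma called 2 of 5 Paneth and 1 of 5 crypt base markers lower. It also called 1 of 4 T cell and 1 of 5 follicle-associated epithelial markers lower there, and 1 of 4 enterocyte markers higher. Over all genes it called 2.34% higher and 6.68% lower in males. All 5 Paneth markers lay below control in males (median difference -0.42) and above it in females (0.13). The part of these cell types in the Cldn8 result was not tested.

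Of the channel-forming claudins, neither Cldn2 nor Cldn15 was called in a comparison. Cldn2, which forms a channel for cations and water, was at 10.98, 11.92 and 11.81 in PAT females, at 11.88, 11.71 and 11.92 in STAT females and at 11.93, 11.74 and 11.77 in control females. In males it was at 11.77, 11.86, 11.54, 11.92 and 11.60 with PAT, at 11.75, 11.72 and 11.76 with STAT, and at 11.74, 11.98, 11.68, 11.85 and 11.83 in controls. The groups overlapped throughout, and PAT female 1, the array with the B cell marker, held the lowest value of all 22. The averaged PAT difference was -0.16 ± 0.10 (adjusted p = 0.39), and -0.01 when PAT female 1 was left out. Its second probe set, 1417232_at, followed the first with r = 0.80 over the 22 arrays and gave -0.19 ± 0.12.

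Cldn15, which forms a sodium channel in the small intestine, was at 11.10, 10.84, 11.37, 10.73 and 10.64 in PAT males, at 11.16, 11.06 and 10.95 in STAT males, and at 11.23, 11.22, 11.26, 11.12 and 11.12 in control males. In females it was at 11.22, 10.95 and 10.91 with PAT, at 11.09, 11.26 and 11.16 with STAT, and at 11.16, 11.15 and 11.18 in controls. PAT males 1, 2, 4 and 5 lay below every control male, while PAT male 3 lay above them all. The difference in males was -0.25 ± 0.11 (SE, adjusted p = 0.13), and the averaged difference was -0.20 ± 0.09 (adjusted p = 0.15). Without PAT male 3, limma called Cldn15 lower in both, with adjusted p = 0.0119 in males and 0.0188 averaged over the sexes.

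Cldn3, one of the claudins that tighten the seal, came nearest to a call after Cldn8. It was at 12.69, 12.88 and 12.87 in PAT females, at 13.12, 13.18 and 13.20 in STAT females and at 13.22, 13.08 and 13.17 in control females. All PAT females lay below all control females, with a difference of -0.35 ± 0.13 (SE, adjusted p = 0.14). With 3 arrays a side such a separation can easily arise by chance, and its share over all genes was not counted. The same holds for Cldn4, Cldn7, Ocln and F11r below, whose levels also moved together from array to array. In males it was at 13.06, 12.76, 13.21, 12.82 and 12.69 with PAT, at 13.12, 12.62 and 12.58 with STAT, and at 13.08, 13.16, 12.92, 12.99 and 13.08 in controls. PAT males 2, 4 and 5 lay below every control male, and PAT male 3 lay above every one. The averaged PAT difference was -0.24 ± 0.08 (adjusted p = 0.0683, exact permutation p = 0.0115). Its other 3 probe sets followed the first closely (r from 0.95 to 0.97) and gave -0.27, -0.23 and -0.26. With the Gapdh covariate the averaged Cldn3 difference was -0.06 ± 0.08. When each probe set was tested on its own, 1434651_a_at was called (adjusted p = 0.0438) and 1460569_x_at was not (adjusted p = 0.0781).

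Cldn4, another sealing claudin, varied most among the 10 genes, with an SD of 0.76 over the 22 arrays and a range from 9.28 to 11.90. In males it was at 11.83, 11.90, 11.73, 10.78 and 9.80 with PAT, at 11.06, 9.30 and 9.28 with STAT, and at 11.14, 10.99, 10.76, 10.82 and 11.36 in controls. PAT males 1 to 3 were above every control male and PAT male 5 was below every one, so the PAT group straddled the controls. In females it was at 9.32, 9.87 and 10.52 with PAT, at 10.56, 10.91 and 10.57 with STAT, and at 10.88, 10.80 and 10.95 in controls. All PAT females lay below all control females. The PAT difference was -0.97 ± 0.46 in females (1.96-fold lower, adjusted p = 0.23) and 0.20 ± 0.35 in males (adjusted p = 0.77). The difference between these effects, females minus males, was -1.17 ± 0.58 (adjusted p = 0.28). With the Gapdh end-to-end difference as a covariate, the values were -0.27 ± 0.33 in females and 0.87 ± 0.26 in males (adjusted p = 0.0552), and the averaged difference changed sign, at 0.30 ± 0.23 against -0.39 ± 0.29 without the covariate.

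Cldn7, a claudin found at the junction and along the lateral membrane, kept within a range of 0.49 over the 22 arrays. It was at 13.57, 13.68 and 13.83 in PAT females, at 13.74, 13.84 and 13.80 in STAT females and at 13.93, 13.84 and 13.90 in control females. In males it was at 13.94, 13.97, 13.96, 13.68 and 13.84 with PAT, at 13.82, 13.47 and 13.52 with STAT, and at 13.86, 13.85, 13.82, 13.78 and 13.90 in controls. As for Cldn4, PAT males 1 to 3 were above every control male, and PAT females were below the control females. The averaged PAT difference was -0.08 ± 0.06 (adjusted p = 0.49). Cldn23, a further claudin of gut epithelium, was at 11.19, 10.55, 11.51, 10.62 and 10.31 in PAT males, against 10.89, 10.74, 10.55, 10.86 and 10.93 in control males. In STAT males it was at 10.79, 10.19 and 10.32, and in females at 10.83, 10.62 and 10.67 with PAT, at 10.56, 10.82 and 10.85 with STAT, and at 10.89, 10.61 and 10.60 in controls. PAT males spread to both sides of the controls, with an SD of 0.50 against 0.15, and the averaged PAT difference was 0.02 ± 0.14 (adjusted p = 0.95).

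Cldn3 and Cldn4 are consecutive protein-coding genes on mouse chromosome 5 in RefSeq. Promoter sequences are shown for these neighbours, for F11r, whose levels followed each of them most closely from array to array, and for Cldn2, which had no pair past the test (correlations are given further on). Each is the 250 bases before the gene's start, 5′ to 3′ on the gene's own strand, from RefSeq on GRCm38.p6. Such windows were found for 8 of the 10 genes, those other than Cldn8 and Cldn23. Capitals mark matches on either strand to 4 short motifs: GGGCGG, the GC box, then CAGGTG, an E box bound by Snail, then TATAAA, the TATA box, and TTTATG, a Cdx site. A match on the other strand appears as the reverse complement. No base lay in more than 1 match.
Cldn4, chr5:134946935-134947184, minus strand: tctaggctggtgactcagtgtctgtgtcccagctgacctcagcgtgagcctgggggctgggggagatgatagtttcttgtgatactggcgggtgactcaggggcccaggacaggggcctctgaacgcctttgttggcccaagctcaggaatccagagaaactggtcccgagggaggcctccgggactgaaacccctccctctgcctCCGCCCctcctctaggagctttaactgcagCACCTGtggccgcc
Cldn3, chr5:134985964-134986213, plus strand: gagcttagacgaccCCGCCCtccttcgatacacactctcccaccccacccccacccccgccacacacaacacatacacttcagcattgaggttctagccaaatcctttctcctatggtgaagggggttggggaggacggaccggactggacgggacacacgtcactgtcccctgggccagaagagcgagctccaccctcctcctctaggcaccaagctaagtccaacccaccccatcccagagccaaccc
F11r, chr1:171437311-171437560, plus strand: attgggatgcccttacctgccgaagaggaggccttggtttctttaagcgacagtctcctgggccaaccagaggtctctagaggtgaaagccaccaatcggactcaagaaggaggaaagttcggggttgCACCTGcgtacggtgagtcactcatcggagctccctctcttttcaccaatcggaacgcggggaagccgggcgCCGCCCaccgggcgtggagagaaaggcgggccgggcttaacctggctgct
Cldn2, chrX:139800558-139800807, plus strand: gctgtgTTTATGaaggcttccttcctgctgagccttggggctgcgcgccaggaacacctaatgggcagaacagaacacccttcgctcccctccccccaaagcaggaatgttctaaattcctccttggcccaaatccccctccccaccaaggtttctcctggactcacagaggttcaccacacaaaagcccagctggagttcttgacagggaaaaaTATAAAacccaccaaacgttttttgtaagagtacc

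The windows of Cldn4 and F11r each held 1 GC box and 1 E box, and that of Cldn3 held 1 GC box. The window of Cldn2 held 1 TATA box and 1 Cdx site and neither of the other motifs. Tjp1, which also had no pair past the test, held 2 GC boxes and no other motif (63.2% G and C, sequence not shown). Cldn7, which had pairs past the test, had 1 window with none of the motifs (51.2%). Its other window held 1 GC box and 2 E boxes (60.0%). Whether motifs go with the correlations was not tested. The G and C content was 62.0% for Cldn4, 60.8% for Cldn3, 60.0% for F11r and 52.0% for Cldn2, where the median over 32851 windows of the same length was 52.4%. Among those windows, 32.7% held a GC box, 17.2% the E box, 12.4% a TATA box and 10.8% the Cdx site. A match describes the letters only and is no sign that a factor binds there.

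Occludin, a strand protein of the MARVEL family, was at 11.10, 11.07 and 11.13 in PAT females, at 11.26, 11.51 and 11.45 in STAT females and at 11.48, 11.39 and 11.46 in control females. All PAT females lay below all control females, and the difference was not called (-0.34 ± 0.13, adjusted p = 0.14). In males Ocln was at 11.56, 11.49, 11.59, 11.11 and 11.10 with PAT, at 11.28, 10.98 and 10.87 with STAT, and at 11.61, 11.29, 11.32, 11.31 and 11.33 in controls. PAT males 4 and 5 were below every control male, and the male means were nearly equal, at 11.37 ± 0.24 with PAT and 11.37 ± 0.14 in controls (SD, n = 5 each). The second probe set, 1440220_at, followed the first with r = 0.73 and gave an averaged PAT difference of -0.26 ± 0.09 (adjusted p = 0.0721 over all probe sets), against -0.17 ± 0.08 for the first. In males it gave -0.20 ± 0.11 and in females -0.32 ± 0.14, so the nearly equal male means were those of the first probe set. Its averaged STAT difference from control was -0.04 ± 0.09, against -0.18 ± 0.09 for the first. Between PAT and STAT it gave -0.22 ± 0.09 (adjusted p = 0.192 over all probe sets), against 0.01 ± 0.09.

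Tjp1, which encodes the scaffold that links claudins and occludin to actin, was the member whose PAT mean lay furthest above control. It was at 10.93, 10.95, 10.96, 10.67 and 10.39 in PAT males, at 10.61, 10.69 and 10.77 in STAT males, and at 10.75, 10.54, 10.50, 10.49 and 10.41 in control males. PAT males 1 to 3 were above every control male and PAT male 5 was below every one. The difference in males was 0.24 ± 0.10 (SE, adjusted p = 0.14), and it was called without PAT male 5 (0.34, adjusted p = 0.0245). In females the levels were 10.61, 10.44 and 10.78 with PAT and 10.65, 10.47 and 10.51 in controls, which overlapped.

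F11r, an adhesion molecule of the immunoglobulin family, was at 11.15, 11.25 and 11.38 in PAT females, at 11.37, 11.48 and 11.46 in STAT females and at 11.55, 11.47 and 11.52 in control females. In males it was at 11.69, 11.46, 11.57, 11.26 and 11.21 with PAT, at 11.45, 10.97 and 10.91 with STAT, and at 11.36, 11.51, 11.38, 11.45 and 11.47 in controls. PAT females lay below all control females, while PAT males 1 and 3 were above and PAT males 4 and 5 below every control male. The averaged PAT difference was -0.13 ± 0.08 (adjusted p = 0.36). Its second probe set, 1436374_x_at, was dim (mean 5.88) and did not follow the first (r = 0.11).

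In STAT mice, limma called 0 of the 10 members averaged over the sexes, 0 in females and 0 in males, and 0.00% of all genes higher and 0.00% lower in each of these comparisons. At an unadjusted p under 0.05 there were 3 members averaged over the sexes, 0 in females and 5 in males, against 13.1%, 3.31% and 15.7% of all genes. The 3 were Cldn4, Cldn7 and F11r, all lower in STAT mice. By the exact permutation test within sex strata 4 members had an unadjusted p under 0.05: Cldn4 (p = 0.0179), Cldn7 (p = 0.00536), Ocln (p = 0.0375) and F11r (p = 0.0152), with 1120 regroupings each. In STAT females the differences of the 10 genes from control females lay between -0.20 ± 0.46 for Cldn4 and 0.15 ± 0.16 for Cldn8.

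The male differences came with STAT males 2 and 3, and STAT male 1 was the only other array of that group. With 3 arrays it cannot be told which of them was typical of STAT males. For Cldn4 the male STAT difference was -1.13 ± 0.41 (2.19-fold lower, adjusted p = 0.18), for Ocln -0.33 ± 0.12 (adjusted p = 0.18), for F11r -0.33 ± 0.11 (adjusted p = 0.17), for Cldn3 -0.27 ± 0.12 (adjusted p = 0.27) and for Cldn7 -0.24 ± 0.09 (adjusted p = 0.19). STAT male 1 lay above the lowest control male for Cldn3, Cldn4, Cldn7 and F11r, and STAT males 2 and 3 lay below every control male for all 5 genes. Without STAT males 2 and 3, which leaves STAT male 1 alone in its group, the differences were 0.05 for Cldn4 and -0.09 for Ocln. They were 0.02 for F11r, 0.08 for Cldn3 and -0.02 for Cldn7. Without STAT male 1, limma called all 5 lower in males, with adjusted p from 0.00584 for F11r to 0.0278 for Ocln, and the Cldn4 difference was -1.72. The array weights fit, which gave STAT male 1 a weight of 0.316 against 1.677 and 2.819 for STAT males 2 and 3, called these 5 and Cldn23 lower in males.

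Markers and RNA integrity differed on the same arrays. The mean log2 level of the 4 enterocyte markers was 13.33 in STAT male 1, 11.82 in STAT male 2 and 12.57 in STAT male 3, against 13.11 to 13.39 in control males. All 4 enterocyte markers lay below control in STAT males, with a median difference of -0.71. Limma called 0 of them, and 3 had an unadjusted p under 0.05. The 5 crypt base markers averaged 8.98 in STAT male 1, 9.75 in STAT male 2 and 9.74 in STAT male 3, against 9.21 to 9.46 in control males. The 5 smooth muscle markers averaged 11.57, 12.19 and 12.15 in STAT males 1, 2 and 3, against 11.45 to 11.88 in control males. For both lists STAT males 2 and 3 lay above every control male. In STAT males limma called 0 genes of either list, and 2 crypt base and 1 smooth muscle marker had an unadjusted p under 0.05. STAT male 1 lay below every control male for the crypt base list. It also had the highest mean of the 6 large-intestine markers of all 22 arrays, at 9.95. STAT males 2 and 3 were at 7.37 and 7.05 for that list, against 7.15 to 9.49 in control males. With the beta-actin end-to-end difference as a covariate, the male STAT differences were 0.11 ± 0.32 for Cldn4, -0.07 ± 0.13 for Ocln, 0.02 ± 0.09 for F11r, 0.05 ± 0.11 for Cldn3 and -0.01 ± 0.08 for Cldn7. The share of cell types and of RNA quality in the levels of these arrays was not tested beyond these values.

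Set directly against STAT, PAT mice had less Cldn8. The same 8 PAT arrays enter this comparison and the one with control, so the 2 results are not independent. The PAT arrays ran from 9.06 to 9.29 over both sexes, and the STAT arrays were at 9.65, 9.33 and 9.47 in females and at 9.52, 10.06 and 9.88 in males. Every one of the 8 PAT arrays lay below every one of the 6 STAT arrays. Averaged over the sexes the difference was -0.48 ± 0.11 (SE, 1.40-fold lower, adjusted p = 0.00963 in limma). The unadjusted exact permutation p was 0.000893, the smallest that 1120 regroupings can give. Limma called 1 of 10 members, lower in PAT, against 2.89% of all genes higher and 2.98% lower. The call held in each of the 14 fits that left out 1 array. Without STAT males 2 and 3, which held the highest Cldn8 levels among the STAT arrays, the difference was -0.33 ± 0.13 and was not called (adjusted p = 0.176). Beside it, limma called 0 of 6 large-intestine markers (1 at an unadjusted p under 0.05). It called 1 of 5 smooth muscle and 1 of 5 crypt base markers lower in PAT, and 1 of 4 enterocyte and 1 of 5 ileal epithelial markers higher. All 5 smooth muscle markers lay below STAT at an unadjusted p under 0.05, with a median difference of -0.49. At that level there were also 3 enterocyte, 3 ileal epithelial, 3 follicle-associated epithelial and 1 crypt base markers, against 20.7% of all genes. The part of these cell types in the difference was not tested. The other 9 genes differed from STAT by -0.13 to 0.28, and the widest 95% interval was that of Cldn4, from -0.36 to 0.91.

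**Figure D2:**
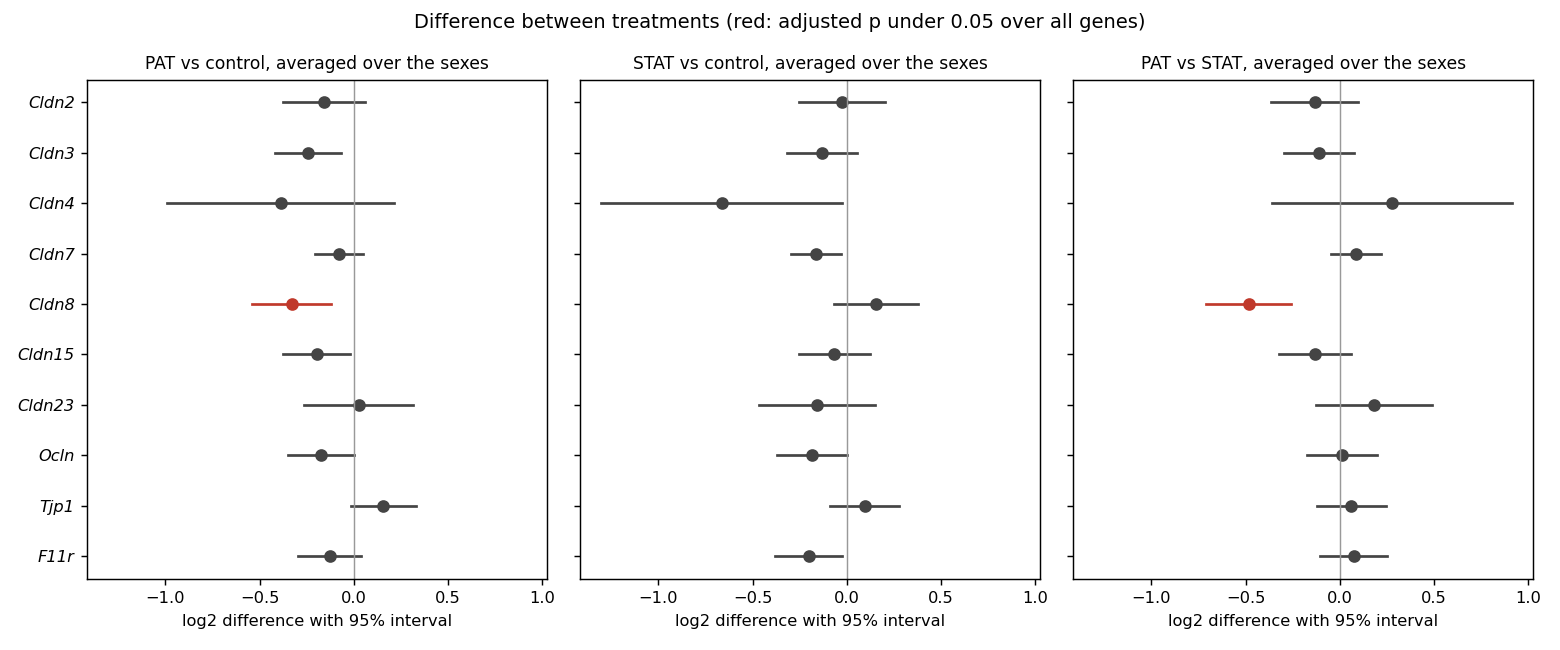
Log2 difference (horizontal axis) with its 95% interval for each of the 10 genes, for PAT against control, STAT against control and PAT against STAT, each averaged over the sexes. Red marks an adjusted p under 0.05; Cldn8 is red at -0.33 against control and at -0.48 against STAT, and Cldn4 has the widest interval in every panel.

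The sexes were compared through the difference of the effects. For PAT, females minus males, limma called 0 of the 10 members and 0.00550% of all genes higher and 0.00% lower. For STAT it called 0 members and 0.00% of all genes in either direction. In neither was a member's unadjusted p under 0.05, against 18.6% of all genes for PAT and 3.44% for STAT. The PAT values lay below 0 for 8 of the 10 genes, against 46.1% of all genes. They ran from -1.17 ± 0.58 for Cldn4 to 0.31 ± 0.20 for Cldn8, whose fall was thus not shown to differ between the sexes (adjusted p = 0.41). Ocln, through its first probe set, had -0.35 ± 0.17 (adjusted p = 0.27), with PAT females low on every array and PAT males low on arrays 4 and 5 only.

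Many pairs of the 10 genes moved together from array to array within the groups. After each group's mean was subtracted, 34 of the 45 pairs of genes had a positive correlation over the 22 arrays, and 12 had an adjusted p under 0.05 by a permutation test within groups (100000 resamples, Benjamini-Hochberg over the 45 pairs). Among the 12, Cldn4 with Cldn8 was negative and the others were positive. F11r followed Cldn4 with r = 0.89 (rho = 0.86, permutation p = 0.00085, adjusted p = 0.0251), Cldn3 with r = 0.87 (rho = 0.83, permutation p = 0.0021, adjusted p = 0.0251) and Cldn7 with r = 0.83 (rho = 0.83, permutation p = 0.00223, adjusted p = 0.0251). Leaving out the 2 arrays farthest from the median of the claudin gave r = 0.83, 0.83 and 0.74 for these pairs. Leaving out STAT males 2 and 3 gave 0.83, 0.77 and 0.73. In every pair the farthest arrays were those of 1 gene, the earlier in the opening list, so extremes of the other gene could stay in. The neighbours Cldn3 and Cldn4 had r = 0.76 (rho = 0.71, permutation p = 0.0085, adjusted p = 0.0371), and 0.67 without the farthest arrays. Cldn4 and Cldn7 had r = 0.81 (rho = 0.93, permutation p = 0.00801, adjusted p = 0.0371), and 0.91 without the farthest arrays.

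Ocln followed Cldn4 with r = 0.79 (rho = 0.79, permutation p = 0.00406, adjusted p = 0.0261), and 0.69 without the farthest arrays. Cldn23 followed Cldn3 (r = 0.82, rho = 0.77, permutation p = 0.00168, adjusted p = 0.0251) and Cldn15 (r = 0.80, rho = 0.62, permutation p = 0.00385, adjusted p = 0.0261). Without the farthest arrays these were 0.72 and 0.56. Cldn2 and Tjp1 had no pair with an adjusted p under 0.05, and Cldn8 had no positive one. Tjp1 came nearest with Ocln (r = 0.61, rho = 0.53, permutation p = 0.0201, adjusted p = 0.0565, and r = 0.40 without the farthest arrays). The correlations of Cldn2 with the other genes ran from -0.49 with Cldn15 to 0.27 with Cldn4. Cldn8 ran against Cldn4 (r = -0.47, rho = -0.46, permutation p = 0.00533, adjusted p = 0.03), with r = -0.35 without the farthest arrays and -0.30 without STAT males 2 and 3, and its rank correlation did not pass (adjusted p = 0.0934). All values of a pair come from the same 22 arrays, so a shared property of an array enters both.

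**Figure D3:**
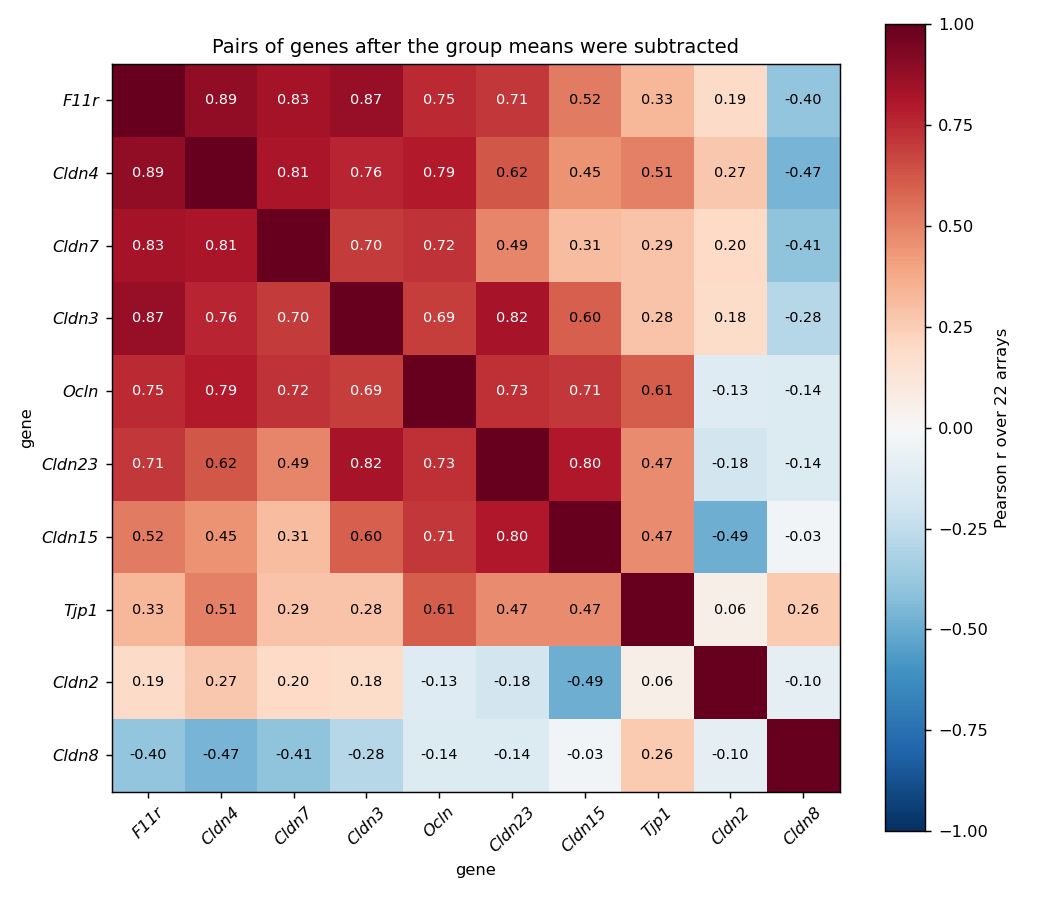
Pearson correlation (colour and number, from -1 to 1) for each pair of the 10 genes over 22 arrays after the group means were subtracted. Cldn3, Cldn4, Cldn7, F11r, Ocln, Cldn23, Cldn15 and Tjp1 are all positive with each other, down to 0.285 for Cldn3 with Tjp1. Cldn4 with F11r is highest at 0.89, and the lowest values are Cldn2 with Cldn15 at -0.49 and Cldn8 with Cldn4 at -0.47.

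For the 4 members of largest SD, the genes of most similar pattern were sought among 11441 other genes of mean level 6 or more, again after subtracting group means over the 22 arrays. For Cldn4 they were the laminin chain Lama3 (r = 0.97), nocturnin, Noct (r = 0.96), and the stress-induced transcription factor Atf3 (r = 0.96). Atf3 was at 11.92, 11.44, 11.36, 10.36 and 7.99 in PAT males, high on PAT males 1 to 3 and low on PAT male 5 as Cldn4 was, and at 9.18, 6.96 and 6.96 in STAT males. For Ocln they were Ubxn2a (r = 0.96), Marveld2 (r = 0.92), which encodes tricellulin of the corners where cells meet, and Slc49a4 (r = 0.92). Marveld2 is the next protein-coding gene to Ocln on mouse chromosome 13. For Cldn23 they were the transcription factor Jun, Tcim and Tmem30b (r = 0.85, 0.85 and 0.84), and for Cldn8 they were Far2, Tmem209 and Sf3a1 (r = 0.81, 0.79 and 0.77). These were picked as the highest of all genes, so their size carries no test.

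RNA integrity, read as the 3-prime minus 5-prime difference of control transcripts, was set beside the levels of the sealing claudins. In PAT males 4 and 5 the Gapdh difference was -0.13 and -0.08, and in PAT males 1 to 3 it was -0.23, -0.15 and -0.19. The beta-actin difference was 0.42 and 0.38 in PAT males 4 and 5, and 0.30, 0.31 and 0.29 in PAT males 1 to 3. PAT females had Gapdh differences of -0.03, -0.08 and -0.11, against -0.17, -0.20 and -0.09 in control females. The part of RNA integrity in these levels was not tested beyond the fits with it as a covariate. With the beta-actin difference as a covariate the averaged PAT difference of Cldn8 was -0.37 ± 0.09 (adjusted p = 0.0131). That of Cldn3 was -0.19 ± 0.06 and then called (adjusted p = 0.0492).

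**Figure D4:**
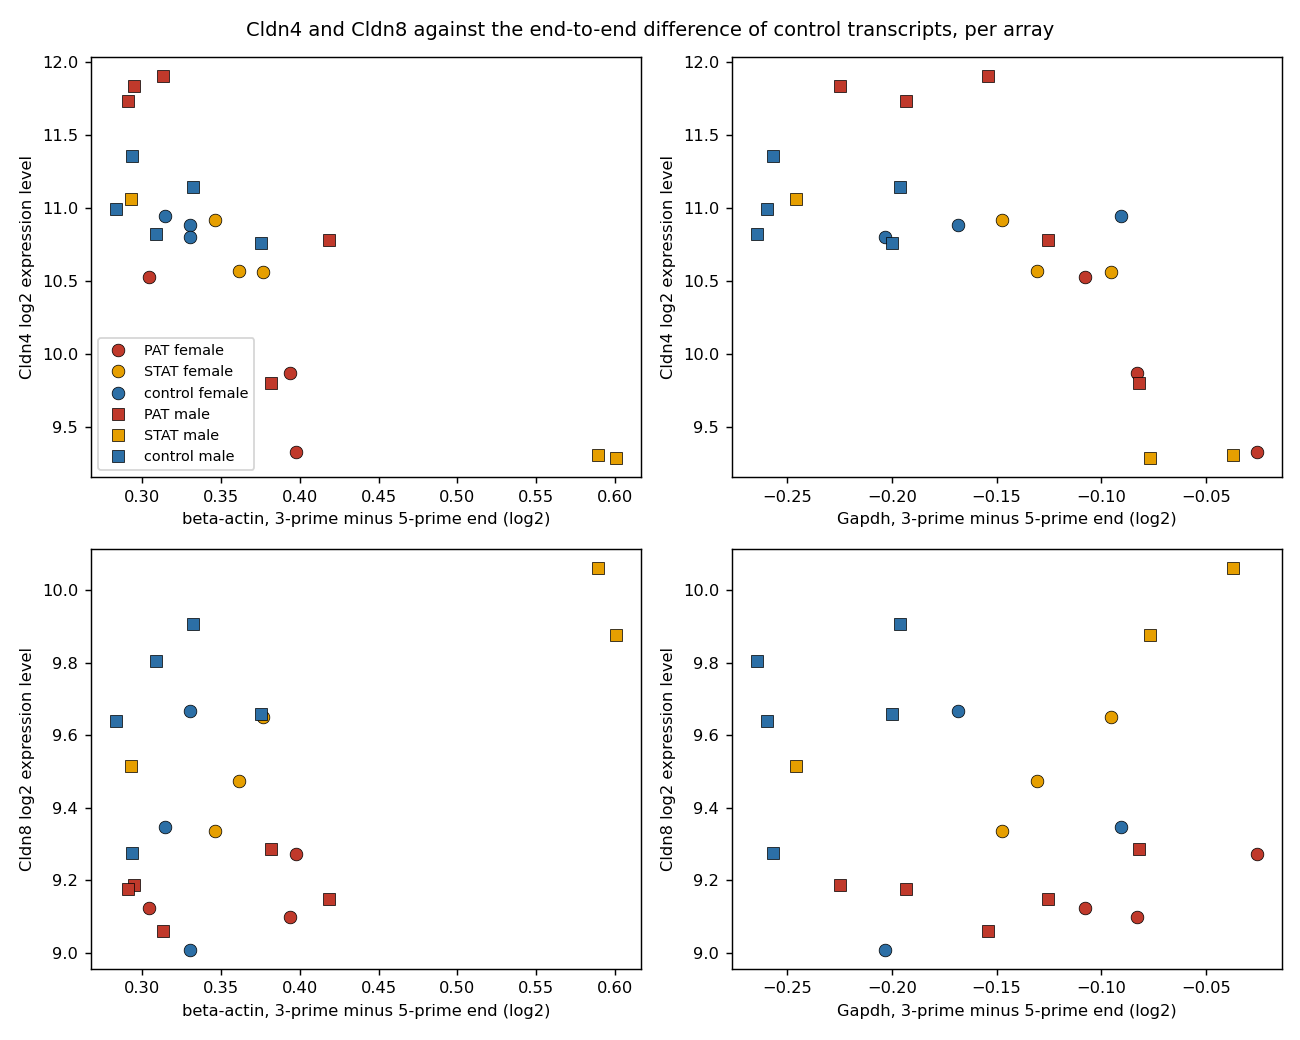
Log2 level of Cldn4 (top) and Cldn8 (bottom) on each array against the 3-prime minus 5-prime level of beta-actin (left) and Gapdh (right), both log2. Circles are females and squares males, coloured by treatment. STAT males 2 and 3, at 0.59 and 0.60 for beta-actin, have the highest beta-actin differences and low Cldn4. Next come PAT male 4, at 0.42 with Cldn4 at 10.78, and PAT female 1, at 0.40 with Cldn4 at 9.32. PAT female 2, at 0.39, and PAT male 5, at 0.38, have Cldn4 at 9.87 and 9.80. Cldn8 lies between 9.06 and 9.29 on the PAT arrays.

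Beyond the 10 genes, 60 other genes of the junction were listed and 55 were measured. Pard6b, a polarity protein that helps place the apical junction, rose in PAT mice. It was at 10.41, 10.59, 9.72, 9.39 and 8.51 in PAT males, at 8.21, 7.32 and 7.30 in STAT males, and at 8.21, 8.01, 8.21, 7.83 and 8.16 in control males. In females it was at 8.41, 8.89 and 9.67 with PAT, at 7.69, 8.02 and 7.97 with STAT, and at 8.09, 7.88 and 8.25 in controls. Every PAT array lay above every other array. Averaged over the sexes Pard6b rose by 1.28 ± 0.24 against control (SE, 2.42-fold, adjusted p = 0.00178), and it stayed called in all 16 fits that left out 1 array. Wnk4, a kinase that acts on claudins and ion transport in the kidney, rose by 0.60 ± 0.09 (1.51-fold, adjusted p = 0.000306), averaging 6.77 ± 0.31 in PAT males and 6.22 ± 0.06 in control males (SD, n = 5 each), which is dim for these arrays.

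Lower in PAT mice were Arhgef2, an exchange factor for small GTPases held at tight junctions (-0.44 ± 0.07, adjusted p = 0.000383), the scaffold Patj (-0.42 ± 0.10, adjusted p = 0.0116), the scaffold ZO-3 encoded by Tjp3 (-0.36 ± 0.09, adjusted p = 0.014) and Rab13, a GTPase of junction assembly (-0.26 ± 0.06, adjusted p = 0.00895). All PAT arrays lay below all control arrays for Arhgef2 within each sex. Arhgef2 was also lower, without a call, in STAT mice (-0.34 ± 0.07, adjusted p = 0.19), at -0.52 ± 0.10 in males, and its difference between PAT and STAT was -0.10 ± 0.07 (adjusted p = 0.48). In all, 2 of the 55 rose, 4 fell and 49 were not called, against 4.61% of all genes higher and 6.38% lower. Among the 13 other claudins measured limma called 0 in either direction (1 at an unadjusted p under 0.05), although Cldn12 fell in males by 0.26 ± 0.08 (adjusted p = 0.0325). Leaving out single arrays, that call held in 5 of 10 fits (highest adjusted p = 0.0949), and it was lost with the Gapdh covariate (adjusted p = 0.0585). With the Gapdh covariate Tjp3, Patj and Rab13 were not called (adjusted p = 0.183, 0.204 and 0.171), and Pard6b, Wnk4 and Arhgef2 were. Tjp3 was also lost in 1 of the 16 fits that left out 1 array (adjusted p = 0.0512).

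In STAT mice limma called 0 of the 55, and 12 had an unadjusted p under 0.05 averaged over the sexes, against 13.1% of all genes. Against STAT, PAT mice had 4 of the 55 higher and 1 lower, against 2.89% and 2.98% of all genes. Pard6b was higher than in STAT by 1.60 ± 0.25 (adjusted p = 0.000677) and the polarity protein Crb3 by 0.49 ± 0.11 (adjusted p = 0.00886). Wnk4 was higher by 0.44 ± 0.10 (adjusted p = 0.00836) and the adhesion protein Nectin2 by 0.38 ± 0.11 (adjusted p = 0.0484), while Cldn12 was lower by 0.26 ± 0.07 (adjusted p = 0.023). Against control, Crb3 (0.17 ± 0.10) and Nectin2 (0.11 ± 0.11) were not called in PAT, and Crb3 lay lower in STAT without a call (-0.31 ± 0.11, adjusted p = 0.26). With the beta-actin covariate Nectin2 (adjusted p = 0.142) and Cldn12 (adjusted p = 0.0527) were not called. When 1 array was left out, Nectin2 kept its call in 4 of 14 fits (adjusted p up to 0.147) and Cldn12 in 10 of 14 (adjusted p up to 0.0745). Nectin2 ran from 8.67 to 9.39 in STAT males, against 9.24 to 9.53 in control males, and Crb3 from 9.35 to 10.19, against 10.04 to 10.28, so that for both genes the highest STAT male lay within the control range.

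**Figure D5:**
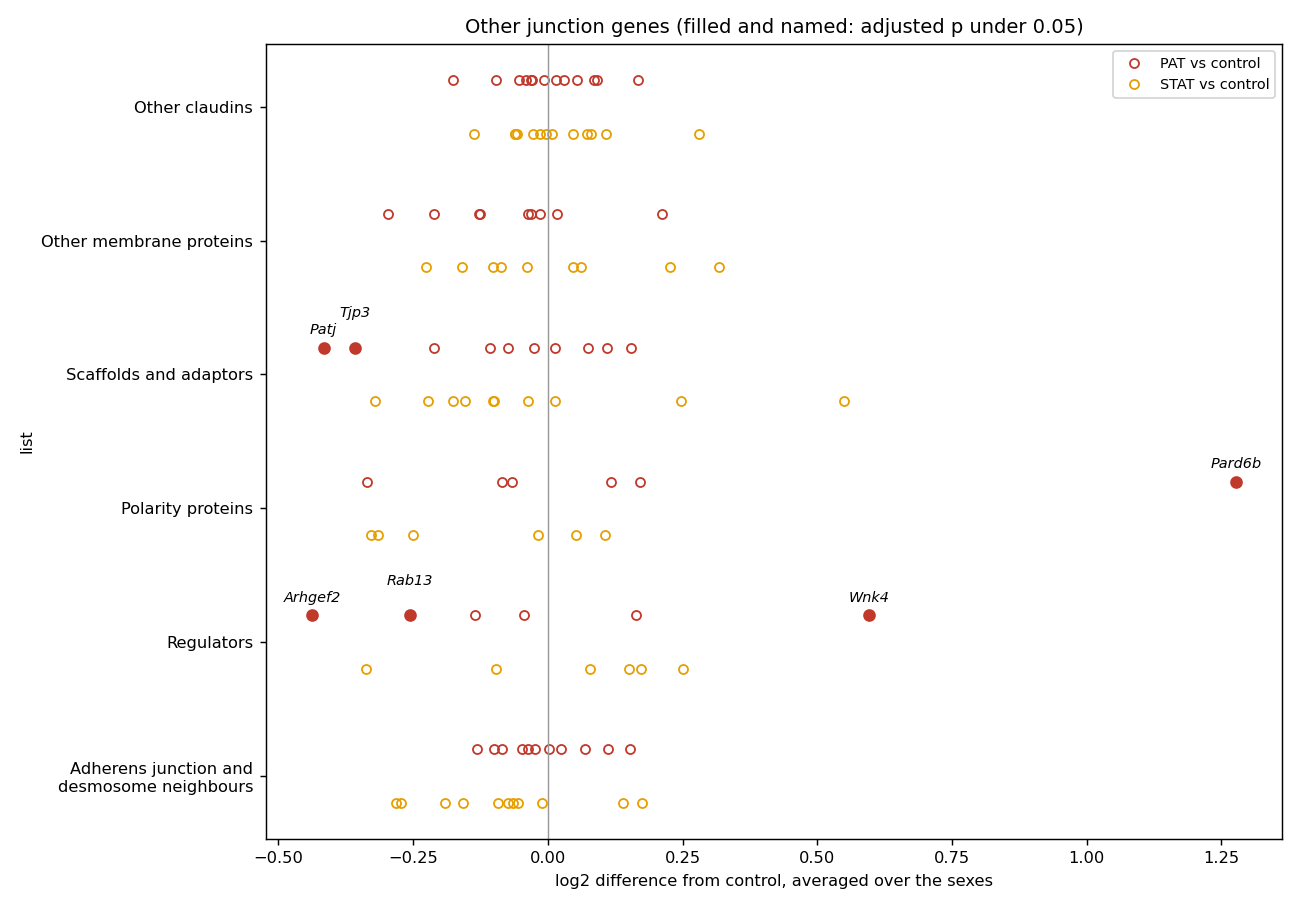
Log2 difference from control, averaged over the sexes (horizontal axis), of 55 other junction genes in 6 lists, for PAT (red) and STAT (amber); each circle is 1 gene. Filled circles with a name have an adjusted p under 0.05; they are 6 genes in PAT, from Arhgef2 at -0.44 to Pard6b at 1.28, and 0 in STAT.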

How the data were processed

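Total RNA of terminal ileum had been cleaned on columns, labelled with biotin and hybridised to 22 Affymetrix arrays of 1 colour, per the labels' protocols. The deposited values are log2 expression levels per probe set, made by the authors with RMA (affy), as the submitters' processing notes name it. No source used here gives the version. RMA corrects background, normalizes between arrays and gives no detection calls, and it understates changes of dim genes. Column medians lay between 5.68 and 5.79, no 2 arrays held identical values, and the number of arrays limits the precision.

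Of 45101 probe sets, 34945 had exactly 1 gene symbol in the platform annotation, 932 had several and 9160 had none, and 64 were controls. The probe set of highest mean stood for a gene, which left 18193 genes. Limma 3.58.1 in R 4.3.3 fitted 1 mean per group of treatment and sex to all 22 arrays (16 residual degrees of freedom, prior 4.88). Adjusted p-values of differences are two-sided and come from this model unless another fit is named beside them. The fit was run on simulated data with independent normal noise and shifts of 1 log2 unit, larger than most differences of the members. That run checked the code and does not bear on the differences given here. The averaged comparisons weight both sexes equally. Alternatives were another choice of probe set, a minimum mean level of 6, repeated quantile normalization, median centring, only the groups compared, limma-trend, array weights, covariates for RNA integrity from Gapdh and beta-actin control probe sets, a term for title numbers above 130, leaving out arrays, and an exact permutation test. The members, gene lists and marker lists were chosen with earlier results of these data known. The text names all 10 members, other junction genes called in a comparison, the 3 most similar genes of the 4 most variable members, and the defining marker of a cell type list, plus tissue markers, Ms4a1, Hoxb13 and Cldn12 in males, which were chosen after their values were seen. Listed junction genes beyond those measured were not analysed here. Other marker lists are given as counts.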

Additional observations from a re-analysis of the deposited data

Results flagged for a closer look

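Among the 20 sets of values tested (the 10 genes in the 5 control males and in the 5 PAT males), 1 held an array far from the rest. Ocln was at 11.61 in control male 1, and the other control males lay between 11.29 and 11.33, so most of the range of that group was the gap to this array. Chance alone would single out about 1 in 20 such sets. Control male 1 also held the highest control male values of Cldn8 (9.91) and Tjp1 (10.75).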

How the results depend on the processing

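The count of members called for PAT against control, averaged over the sexes, was 1 (Cldn8). It was 2 (Cldn3 and Cldn8) with only genes of mean level 6 or more, with the beta-actin covariate, with a term for title numbers above 130 and without STAT males 2 and 3, and 0 with array weights. In males PAT called 1, and 2 with array weights (Cldn8 and Tjp1). STAT called 0, and with array weights 4 averaged over the sexes and 6 in males. PAT against STAT called 1, 2 with the beta-actin covariate (Cldn3 and Cldn8), 0 without STAT males 2 and 3, and 0 without these and PAT female 1, an alternative chosen after seeing the data. When each array was left out in turn, the counts ran from 0 to 3 for PAT averaged over the sexes, from 0 to 2 for PAT in males, from 0 to 3 for STAT averaged over the sexes and from 0 to 5 for STAT in males. They were 1 throughout for PAT against STAT and 0 throughout for both treatments in females and for both differences between the sexes. Fits that leave out arrays test fewer samples, and for the other settings the cause was not tested. By the exact permutation test, 3 members for PAT, 4 for STAT and 1 for PAT against STAT had an unadjusted p under 0.05, where limma had 3, 3 and 1. No called value changed its direction under an alternative run. No paired analysis was possible because the groups share no replicate number, each array having a title number of its own. No scan date or batch is given in the sources used here, so no value within a batch could be had. Arrays give no detection limit after RMA, which matters here for the second F11r probe set and for Wnk4.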

Other observations

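Apoa4, an apolipoprotein of enterocytes, was among the epithelial genes measured beside the junction. It was at 12.71, 12.35, 12.71, 12.09 and 13.34 in PAT males, at 11.89, 8.41 and 10.60 in STAT males, and at 11.17, 10.64, 10.85, 11.60 and 11.80 in control males. In females it was at 13.26, 12.71 and 12.99 with PAT, at 10.77, 11.82 and 10.51 with STAT, and at 11.03, 11.08 and 10.79 in controls. Every PAT array lay above every control array, including PAT males 4 and 5, on which Ocln and F11r were below the controls. Apoa4 was chosen here after its values were seen.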
